A study of Mus musculus with 4 samples.

Results

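The tetraspanin genes Cd9, Cd37, Cd63, Cd81, Cd82 and Tspan32, were followed across single haematopoietic stem cells (HSCs) of mouse bone marrow. They are 6 of the 13742 genes in the count table, chosen by name with earlier results of the same cells known, and all 6 were present. The cells came from wild-type mice aged 8 weeks and were ESLAM SK cells: they lacked lineage markers and CD48 and carried c-Kit, Sca-1, CD150 and CD201, the last also called EPCR, after enrichment for c-Kit. Single cells were sorted from a CD27-negative and a CD27-positive gate, and barcoded cDNA was pooled into 4 libraries. The labels of every library name both gates and no source gives the gate of a cell, so the 4 libraries form 1 group and the gates are not compared. Neither the strain nor whether the libraries came from separate mice is given in the sources used here, so the spread between libraries may be technical.

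Tetraspanins are small proteins that cross the cell membrane several times and hold integrins, growth factor receptors and proteases together in patches of the membrane. Several are known from blood stem cells of the mouse. CD82 is known to help keep long-term HSCs quiescent, CD81 to help dividing HSCs return to quiescence, and CD9 is carried by HSCs and by megakaryocytes. CD63 sits in lysosomes and secreted vesicles and binds the protease inhibitor TIMP1. CD37 is best known from B cells and other leukocytes, and Tspan32 (also called Tssc6) from platelets and T cells. CD27, the receptor that set the sort gates, is a member of the tumour necrosis factor receptor family found on lymphoid cells and progenitors.

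On GRCm38 (GENCODE M21) the genes lie on 4 chromosomes. Cd81 (ENSMUSG00000037706.17) is at chromosome 7, 143052739 to 143067934, plus strand, and Tspan32 (ENSMUSG00000000244.17) ends 33.1 kb before it on the same strand, at 143005046 to 143019644. Cd37 (ENSMUSG00000030798.15) is on the same chromosome at 45233632 to 45239115, minus strand. Cd9 (ENSMUSG00000030342.8) is at chromosome 6, 125460266 to 125494791, minus strand, 223 kb from Cd27 and 52.0 kb from Vwf, the von Willebrand factor gene. Cd63 (ENSMUSG00000025351.14) is at chromosome 10, 128900989 to 128912822, plus strand, and Cd82 (ENSMUSG00000027215.13) at chromosome 2, 93419111 to 93463140, minus strand. All 6 are annotated as protein coding.

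The promoters of Cd37 and Cd81, the members with opposite relations to Cd27 across cells, are shown with those of Cd9, which among the members varied most like Cd81, and of Cd27 itself. Each is the 250 bases before the gene start that RefSeq gives on GRCm38.p6, on the gene's own strand, 5′ to 3′; all 6 members had an entry. RefSeq starts differ from the GENCODE ends above, so the Cd37 window lies inside the GENCODE gene, and the windows of Cd9 and Cd81 run into theirs. Capitals mark CGGAA, the core of many ETS factor sites, and GGGCGG, the GC box, on either strand; where they touch or overlap the capitals run together.
Cd37, chr7:45238840-45239089, minus strand: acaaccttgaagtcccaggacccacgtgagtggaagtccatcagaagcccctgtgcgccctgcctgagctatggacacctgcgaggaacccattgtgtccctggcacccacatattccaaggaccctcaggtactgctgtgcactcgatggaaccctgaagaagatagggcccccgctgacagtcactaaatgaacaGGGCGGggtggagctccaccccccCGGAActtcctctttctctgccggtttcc
Cd81, chr7:143052500-143052749, plus strand: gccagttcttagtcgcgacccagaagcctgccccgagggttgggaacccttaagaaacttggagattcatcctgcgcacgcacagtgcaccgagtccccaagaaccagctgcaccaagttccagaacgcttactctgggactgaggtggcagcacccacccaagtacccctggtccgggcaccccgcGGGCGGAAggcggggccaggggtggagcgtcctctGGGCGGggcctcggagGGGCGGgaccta
Cd9, chr6:125494761-125495010, minus strand: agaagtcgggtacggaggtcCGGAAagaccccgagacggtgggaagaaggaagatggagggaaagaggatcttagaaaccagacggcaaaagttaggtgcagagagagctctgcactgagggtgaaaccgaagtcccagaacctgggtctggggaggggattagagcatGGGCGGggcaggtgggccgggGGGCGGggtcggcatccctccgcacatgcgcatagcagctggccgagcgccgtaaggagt
Cd27, chr6:125237028-125237277, minus strand: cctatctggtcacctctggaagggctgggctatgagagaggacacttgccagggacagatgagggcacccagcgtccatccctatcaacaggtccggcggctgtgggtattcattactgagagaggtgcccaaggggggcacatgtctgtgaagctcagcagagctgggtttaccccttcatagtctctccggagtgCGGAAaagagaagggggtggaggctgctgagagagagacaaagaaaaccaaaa
Each of the 4 windows holds 1 CGGAA, which 25.2% of all 32851 mouse promoter windows of that length hold. GGGCGG occurs 3 times before Cd81, 2 times before Cd9, 1 time before Cd37 and 0 times before Cd27, and 32.7% of all windows hold at least 1. The GC content is 58.8%, 65.6%, 61.6% and 56.0% for Cd37, Cd81, Cd9 and Cd27, against a median of 52.4%. The motifs were chosen after the sequences were seen, and a match is a description, not a site.

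The count table held 297 cells. The 292 cells with at least 10000 counts and at least 1000 genes detected were kept, with 74, 75, 71 and 72 cells in libraries 1 to 4. Library totals ran from 5250569 to 11207442 counts, and median counts per cell from 65416 to 142675. For comparisons between cells, counts were drawn at random down to 30000 per cell, a depth that 276 cells reached. Some consecutively numbered cells stood apart, 8 in library 2 and 7 in library 4. They were picked as cells whose profiles correlated at r over 0.12 with at least 7 other cells. Within these runs the median r was 0.20 and 0.21, against -0.012 and -0.019 with the other cells of the library. The high r among them follows in part from that rule. They had fewer genes detected, a median of 1744.5 against 2910 in library 2 and 1816 against 3239 in library 4. Cd81 had a count in 9 of these 15 cells and in 270 of the other 277, and Cd63 in 15 of 15 and 264 of 277. Markers of other cell types summed over the genes read here to at most 14.7 CPM (counts scaled to a library total of 1000000) in any library for macrophages, 0.27 for mast cells and basophils, 111 for B cells, 134 for T and NK cells and 280 for mature megakaryocytes. Sums were larger for 9 endothelial markers, at 632 to 870 CPM, and for 10 erythroid markers, at 2632 to 3820 CPM. The defining B cell genes Ms4a1 and Pax5 had a count in 1 cell each, and 99.0 ± 7.2 CPM of the B cell sum was Cd79b (SD, n = 4 libraries).

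Cd81, Cd63 and Tspan32 were found in nearly every HSC, Cd9 in most, and Cd82 and Cd37 in fewer. Levels below are CPM of the counts summed over the kept cells of a library, with the mean and SD over the 4 libraries. The libraries enrich 3′ ends and counts were not divided by transcript length, so levels of different genes are not ranked. Intervals on shares of cells are 95% exact binomial (Clopper-Pearson) and cover counting error only.

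Cd81 stood at 643, 669, 634 and 599 CPM in libraries 1 to 4, a mean of 636 ± 29 (SD, n = 4). It had a count in 98.6% (interval 92.7 to 99.97), 90.7% (81.7 to 96.2), 97.2% (90.2 to 99.7) and 95.8% (88.3 to 99.1) of cells. The 4 libraries lay close together, the highest being 1.12 times the lowest. Cells with a Cd81 count had a median of 605 CPM and quartiles of 378 and 892.

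Tspan32 stood at 476, 462, 482 and 464 CPM, a mean of 471 ± 9.8 (SD, n = 4). Its coefficient of variation between libraries was 2.08%, against a median of 9.57% for the 400 genes found in a like number of cells (within 10%). Cells with a count made up 91.9%, 86.7%, 91.5% and 91.7% of the libraries.

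Cd9 stood at 370, 374, 389 and 395 CPM, a mean of 382 ± 12 (SD, n = 4), and had a count in 83.8%, 80.0%, 77.5% and 84.7% of cells. Its coefficient of variation was 3.04%, against a median of 11.3% for the 363 genes found in a like number of cells. These values describe 4 libraries and were not tested.

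Cd63 stood at 760, 717, 630 and 825 CPM, a mean of 733 ± 82 (SD, n = 4). Library 4 was 1.31 times library 3, and the coefficient of variation, 11.2%, was above the median of 8.01% for its 390 comparison genes. It had a count in 97.3%, 92.0%, 94.4% and 98.6% of cells.

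Cd82 stood at 87.7, 100.1, 79.8 and 78.5 CPM, a mean of 86.5 ± 9.9 (SD, n = 4). It had a count in 44.6% (interval 33.0 to 56.6), 37.3% (26.4 to 49.3), 39.4% (28.0 to 51.7) and 41.7% (30.2 to 53.9) of cells, and the 4 intervals overlap. The 119 cells with a count held a median of 16 counts, or 173 CPM.

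Cd37 stood at 56.7, 41.5, 50.7 and 60.3 CPM, a mean of 52.3 ± 8.2 (SD, n = 4). It had a count in 28.4% (interval 18.5 to 40.1), 30.7% (20.5 to 42.4), 32.4% (21.8 to 44.5) and 38.9% (27.6 to 51.1) of cells. The 95 cells with a count held a median of 12 counts, or 122 CPM, so most detections did not rest on a single count. With at least 3 counts asked for, Cd37 was found in 79 cells and Cd82 in 99.

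**Figure D1:**
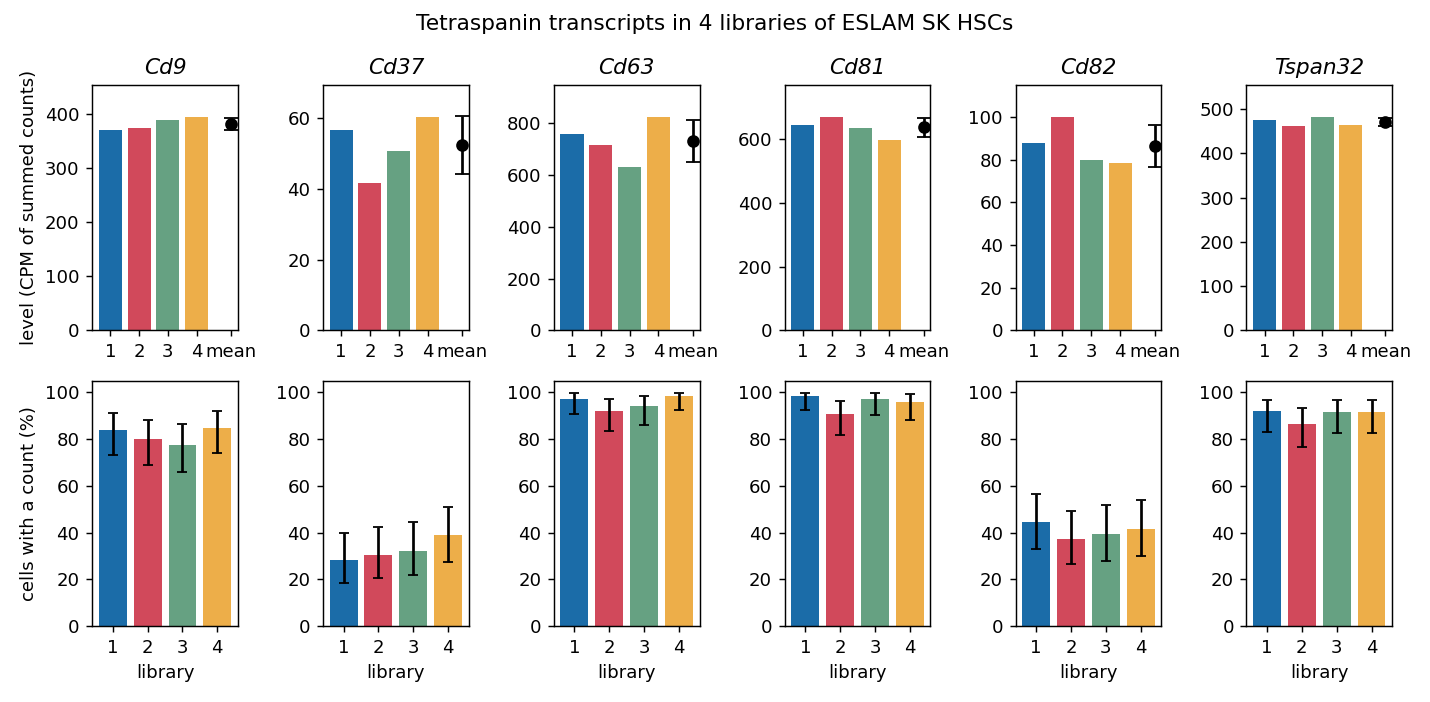
Levels (upper row, CPM of summed counts, with the mean and SD over 4 libraries at the right) and shares of cells with a count (lower row, percent, with 95% exact binomial intervals) of 6 tetraspanin genes in libraries 1 to 4. Cd81, Cd63 and Tspan32 have counts in over 86% of the cells of every library, and Cd37 in 28.4% to 38.9%.

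The highest cells held about as much of the members' counts as for other genes. The 10 highest cells had 34.3% of the Cd37 counts and 27.6% of the Cd82 counts, against medians of 33.3% and 29.0% for genes found in like numbers of cells. For Cd63, Cd81, Tspan32 and Cd9 the 10 highest cells had 15.2%, 13.9%, 14.3% and 16.6%. After thinning, no cell lacked all 6 members: 115 of 276 cells (41.7%) had counts of 4 members, 95 (34.4%) of 5 and 12 (4.35%) of all 6.

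Of the wider family, 23 of 31 listed tetraspanin genes were read here, and the 6 members carried 67.4% of their counts. Of the 17 others, 4 had a count in over 50% of cells. These were Tspan13 at 461 ± 90 CPM, Tspan3 at 361 ± 33, Tspan14, a regulator of the protease ADAM10, at 172 ± 12, and Tspan4 at 48.3 ± 3.7 (SD, n = 4). Another 12 of the 17 were found in under 10% of cells. Among these was Cd53, a leukocyte tetraspanin, in 27 of 292 cells at 20.5 ± 12.3 CPM. Of 25 listed partners of tetraspanins, 22 were read. Those with the highest CPM are named, without ranking their expression. Ifitm1, an interferon-inducible membrane protein that binds CD81, stood at 3159 ± 244 CPM. Cd47 stood at 751 ± 72, Sdcbp (syntenin, which binds the tail of CD63) at 710 ± 106 and Kit at 222 ± 17. The integrin subunit Itgb1 stood at 97.9 ± 6.3 CPM.

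Across the cells of a library, Cd37 transcript was found more often in cells that carried Cd27 transcript, and Cd81 transcript was lower in them. Both genes were chosen for this relation, so it is described and not tested. Cd37 had a count in 30.6%, 41.5%, 37.1% and 38.9% of the thinned cells with a Cd27 count in libraries 1 to 4, against 16.7%, 10.3%, 10.3% and 32.4% of those without. The share was higher with Cd27 in 4 of 4 libraries, by the least in library 4. The mean share was 37.0% ± 4.7 with Cd27 (55 of 148 cells) and 17.4% ± 10.4 without (23 of 128 cells; SD, n = 4). The mean level of Cd37 was 79.5 ± 14.9 CPM with Cd27 and 30.0 ± 16.5 CPM without.

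Cd81 averaged 526, 540, 648 and 517 CPM in the thinned cells with a Cd27 count in libraries 1 to 4, against 737, 740, 745 and 632 CPM in those without. It was lower with Cd27 in 4 of 4 libraries, and library 3 with Cd27 lay above library 4 without. The mean was 558 ± 61 CPM with Cd27 and 714 ± 54 CPM without (SD, n = 4). The share of cells with any Cd81 count was 94.9% ± 6.1 with Cd27 and 93.7% ± 2.9 without. No test was made of either share or level.

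**Figure D2:**
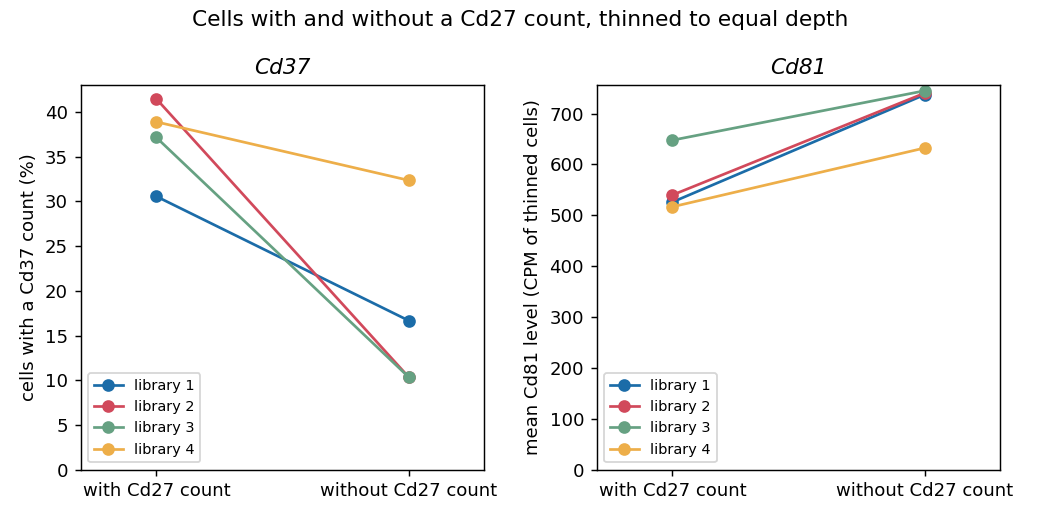
Share of cells with a Cd37 count (left, percent) and mean Cd81 level (right, CPM) in cells with and without a Cd27 count, all thinned to 30000 counts; each line is 1 of 4 libraries. In every library Cd37 is more frequent and Cd81 is lower in the cells with a Cd27 count.

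As a rank correlation across the 64 to 72 thinned cells of a library, which share a preparation and a depth, Cd37 had a Spearman rho with Cd27 of 0.15, 0.32, 0.39 and 0.11 in libraries 1 to 4, a mean of 0.24 ± 0.13 (SD, n = 4). Among 5300 other genes found in at least 20% of cells, Cd37 ranked 5 from the highest in mean rho with Cd27. In the 11 to 17 cells per library that had both transcripts, the mean rho was -0.093, so the direction turned within them. Cd81 had a rho with Cd27 of -0.29, -0.17, -0.080 and -0.19, a mean of -0.18 ± 0.085, and ranked 29 from the lowest. With Pearson r of log2(CPM + 1) the mean was -0.068, and over cells with both transcripts -0.080. Of all genes, 15% had the same sign with Cd27 in 4 of 4 libraries. Since Cd37 and Cd81 were chosen on this contrast, nothing is read from that share.

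For the other 4 members mean rho with Cd27 was 0.033 ± 0.090 for Cd9, -0.065 ± 0.12 for Cd63, -0.010 ± 0.10 for Cd82 and -0.056 ± 0.098 for Tspan32 (SD, n = 4). Each had rho of both signs among the libraries. Over cells with a count of both genes the mean rho with Cd27 was 0.29 for Cd82 and 0.050 for Tspan32, so both turned positive. Cells were also split at the library's median of thinned Cd27 counts and raw counts summed per library and class, which keeps deeper cells at full weight. The log2 fold change of Cd27-high over Cd27-low cells was then 1.71 ± 0.42 for Cd37 (SE of an edgeR fit with library as block) and -0.39 ± 0.12 for Cd81. For Cd9, Cd63, Cd82 and Tspan32 it was -0.01, -0.04, -0.05 and -0.11, with SEs of 0.17, 0.13, 0.26 and 0.14. Split by Cd82 instead, Cd27 averaged 145 ± 24 CPM in cells with a Cd82 count and 215 ± 32 CPM in those without (SD, n = 4). It was lower in 4 of 4 libraries, and 12.7% of all genes kept 1 direction in that split. The log2 fold change was -0.57 ± 0.20 (SE). For Cd27 in the splits by Cd9, Cd63 and Tspan32 it was -0.06, -0.14 and 0.03. Cd37 ran from 72.1 to 80.6 CPM in the Cd27-high sums of the 4 libraries, against 10.7 to 50.6 CPM in the Cd27-low sums. Cd81 ran from 515 to 577 CPM in the Cd27-high sums, against 672 to 774 CPM in the Cd27-low sums. Neither pair of ranges overlapped, which held for 3.8% of all genes in this split. The direction was the same in 4 of 4 libraries for 14.6% of genes, and 0.0197% passed edgeR at an adjusted p below 0.05; as the pair was chosen on Cd27, nothing is read from these shares.

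**Figure D3:**
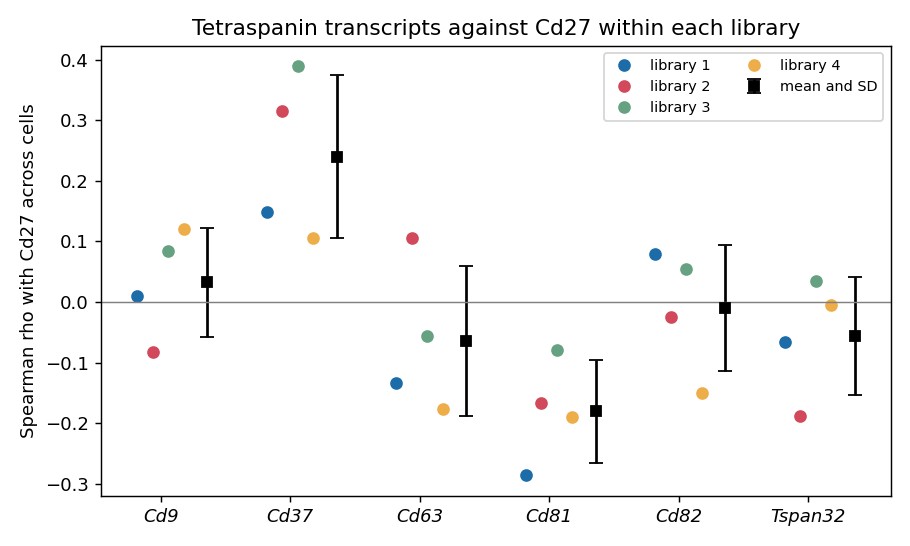
Spearman rho of each tetraspanin transcript with Cd27 across the cells of each library (coloured points) and the mean with SD over 4 libraries (black squares). All 4 libraries lie above 0 for Cd37 and below 0 for Cd81, and the other 4 genes have libraries on both sides of 0.

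Of the 15 pairs, 4 had the same sign in 4 of 4 libraries, and mean rho ran from -0.17 to 0.21 with a median of 0.043. Of all genes, 13.1%, 15.4%, 14.8%, 16.2%, 14% and 12.9% met that rule of sign with Cd9, Cd37, Cd63, Cd81, Cd82 and Tspan32. Cd9 and Cd81 had the highest mean of the 15: rho was 0.16, 0.12, 0.36 and 0.18 in libraries 1 to 4, a mean of 0.21 ± 0.11. Cd81 ranked 4 of 5300 genes from the highest in mean rho with Cd9, and Cd9 ranked 28 with Cd81. Mean rho was 0.26 without the 15 cells of the runs, 0.15 with another random thinning and 0.11 as Pearson r of log2(CPM + 1). Tspan32 and Cd81, the pair that lie next to each other, had a rho of 0.14, 0.041, 0.18 and 0.14, a mean of 0.13 ± 0.059. The mean was 0.076 with another random thinning. Cd81 ranked 125 from the highest in mean rho with Tspan32, and Tspan32 ranked 360 with Cd81.

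Cd82 was found in a smaller share of the cells with Cd37 than of those without. Of the thinned cells with Cd37, 29.4%, 20.0%, 18.8% and 20.0% had a Cd82 count in libraries 1 to 4 (17 of 78 cells in all), against 45.5%, 44.0%, 35.4% and 37.8% of those without Cd37 (81 of 198 cells). The share was 22.0% ± 4.9 with Cd37 and 40.7% ± 4.8 without (SD, n = 4). Mean rho was -0.17 ± 0.068, and Cd82 ranked 10 of 5300 genes from the lowest with Cd37. It was -0.12 with another random thinning. Cd82 was also negatively related to Cd9, with a mean rho of -0.11 ± 0.077, although in library 4 it was -0.006, and the mean was -0.057 with CPM of cells without thinning. Cells of 1 library are not replicates, the counts are sparse and the pairs were picked out after their values were seen, so these are descriptions.

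**Figure D4:**
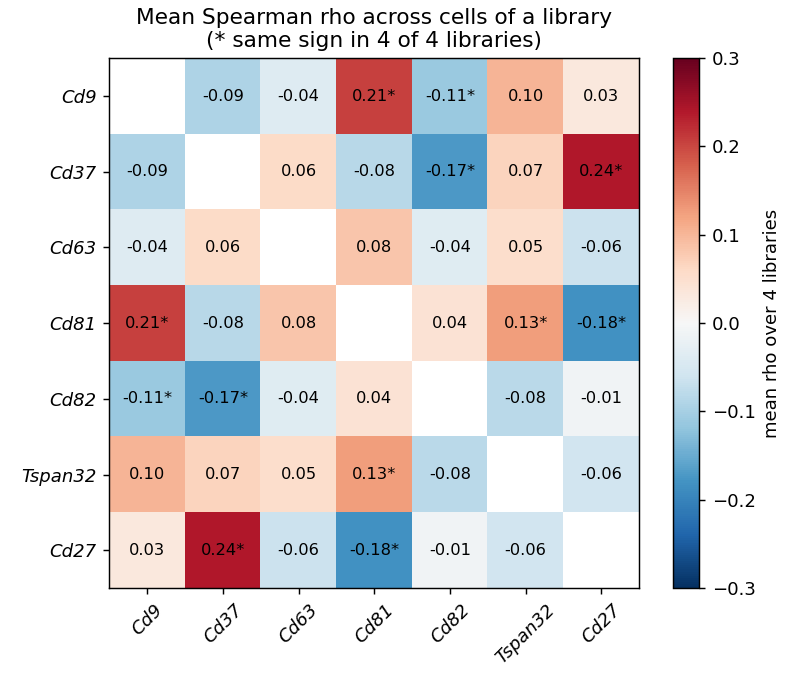
Mean Spearman rho over 4 libraries for each pair of the 6 tetraspanins and Cd27, across thinned cells of a library; an asterisk marks the same sign in 4 of 4 libraries. The highest member pair is Cd9 with Cd81 (0.21) and the lowest Cd37 with Cd82 (-0.17).

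The genes most like each member across cells were named by mean rho over the 4 libraries, with the same sign in each. For Cd37 they were Ctla2a, an inhibitor of cathepsin-type proteases (0.28 ± 0.047, SD, n = 4), Anxa4 (0.26 ± 0.11), Cd27, Nedd8 (0.24 ± 0.14) and Bdh2 (0.24 ± 0.097). The lowest were Gas2l3 (-0.23 ± 0.13), Nfkbia, the inhibitor of NF-kB (-0.22 ± 0.088), and Net1 (-0.21 ± 0.062). For Cd81 they were Ltbr, the lymphotoxin beta receptor (0.29 ± 0.022), H2-D1, a class I MHC chain (0.28 ± 0.12), Tbc1d17 (0.26 ± 0.081), Snrk (0.24 ± 0.16) and Mthfsl (0.23 ± 0.076). Ltbr had the steadiest values of these, from 0.26 to 0.32. The lowest with Cd81 was the chemokine gene Ccl4 (-0.22 ± 0.056), then Abhd17a (-0.21 ± 0.12) and Cnot2 (-0.21 ± 0.071). The middle 90% of all genes lay between -0.090 and 0.12 for Cd37 and between -0.096 and 0.14 for Cd81.

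For Cd82 the first were Ltb, which encodes lymphotoxin beta (0.23 ± 0.088), Cyba, a subunit of NADPH oxidase (0.23 ± 0.076), Sirt7 (0.21 ± 0.11), Oaz2 (0.21 ± 0.11) and Metap1 (0.20 ± 0.054). The lowest were Sptssa (-0.25 ± 0.16), Npm1 (-0.23 ± 0.098) and the ribosomal protein gene Rpl34 (-0.20 ± 0.071). For Cd63 the first were Ss18 (0.28 ± 0.11), Mrpl32 (0.28 ± 0.077), the lactate dehydrogenase gene Ldha (0.26 ± 0.11), Psmb10 (0.24 ± 0.077) and Pdia3 (0.23 ± 0.15), with Hnrnpa0 (-0.24 ± 0.12) and Cd44 (-0.23 ± 0.047) among the lowest. Cd44, a receptor for hyaluronan, is itself on the list of tetraspanin partners. For Cd9 they were Atp6ap2 (0.23 ± 0.16), Hat1 (0.23 ± 0.094), Ube2j1 (0.21 ± 0.055), Cd81 and Gpatch11 (0.20 ± 0.065), with Atp5l (-0.22 ± 0.11), Cnot6 (-0.20 ± 0.044) and Zmat5 (-0.20 ± 0.060) lowest. For Tspan32 they included the autophagy gene Map1lc3b (0.24 ± 0.095), Ndufs5 (0.20 ± 0.14), Hadh (0.20 ± 0.11) and Eif2ak4 (0.20 ± 0.047), with Ip6k1 (-0.22 ± 0.12), H2-Q4 (-0.21 ± 0.13) and Gar1 (-0.20 ± 0.068) lowest.

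Against summed gene lists (thinned counts, members and Cd27 left out), Cd37 had negative rho with the lists of stem cell and platelet genes. Its mean rho was -0.21 ± 0.092 with 25 HSC identity genes, -0.19 ± 0.060 with 16 quiescence and dormancy genes and -0.19 ± 0.071 with 16 megakaryocyte and platelet genes (SD, n = 4), each below 0 in 4 of 4 libraries. With 13 lymphoid and multipotent progenitor genes it was 0.089 ± 0.081, above 0 in 4 of 4. With 7 mature megakaryocyte markers it was 0.098 ± 0.092, above 0 in 4 of 4 and of opposite sign to the wider platelet list. Cd81 went the other way for 2 of these lists, with 0.12 ± 0.076 for platelet genes and -0.12 ± 0.053 for lymphoid genes, each of 1 sign in 4 of 4 libraries. With HSC identity it was 0.051 ± 0.088 and with dormancy genes 0.13 ± 0.20. Cd37 and Cd81 were chosen for opposite relations to Cd27, so opposite signs here are not independent of that choice. In Cd27-high and Cd27-low cells the platelet sum was 1534 ± 138 and 1739 ± 83 CPM, higher in 0 of 4 libraries. The lymphoid sum was 965 ± 181 and 783 ± 46 CPM, higher in 3 of 4. The sum of 13 myeloid genes was 2044 ± 128 and 1577 ± 89 CPM, higher in 4 of 4. In Cd37-high and Cd37-low cells the myeloid sum was 1959 ± 235 and 1744 ± 33 CPM, higher in 4 of 4. In Cd81-high and Cd81-low cells it was 1881 ± 107 and 1758 ± 145 CPM, higher in 2 of 4. Of the markers of other cell types, the erythroid sum had a mean rho with Cd81 of -0.14 ± 0.079, below 0 in 4 of 4 libraries, and the endothelial sum 0.12 ± 0.057, above 0 in 4 of 4. With the sum of 8 genes listed as HSC sort markers Cd81 had -0.097 ± 0.11, also below 0 in 4 of 4. These were Ly6a, Kit, Procr, Slamf1, Cd48, Ptprc, Flt3 and Cd34. The list mixes markers that the cells were sorted to carry with Cd48, which they were sorted to lack. No direction is read from that sum. Beside these, Cd37 had a mean rho of 0.14 ± 0.12 with the number of genes detected after thinning and 0.023 ± 0.10 with the total counts of the cell. For Cd81 these were 0.098 ± 0.21 and 0.10 ± 0.17. Their part in the relations was not tested. Cd63 had a mean rho of 0.13 with 23 lysosome and vesicle genes, of which its product is a neighbour, above 0 in 3 of 4 libraries.

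When whole transcriptomes were compared between cells high and low in a member, few genes passed the test. For each member, cells above and at or below the library's median of thinned counts (with and without a count for Cd37 and Cd82) were summed per library and tested with edgeR's quasi-likelihood test, library as block and Benjamini-Hochberg adjustment over all genes tested, at a threshold of 0.05. Of 10162, 10042, 10157, 10173, 10087 and 10174 genes tested, 1, 1, 0, 0, 0 and 0 passed for Cd9, Cd37, Cd63, Cd81, Cd82 and Tspan32, or 0.00984%, 0.00996%, 0%, 0%, 0% and 0%. At an unadjusted p below 0.05 the counts were 336, 407, 340, 367, 288 and 371. DESeq2's Wald test on the same sums called more, 17, 189, 33, 21, 21 and 32 genes. The 6 splits share their cells and are not independent. In counts simulated from these sums, edgeR recovered 7% to 13% of genes changed 2-fold and 36% to 58% of those changed 4-fold. A gene that did not pass is therefore not shown to be unchanged.

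The gene that passed was Car1, a carbonic anhydrase of erythroid cells, in both cases. In Cd9-high cells it stood at 0, 0, 4.8 and 0 CPM in libraries 1 to 4, against 39.7, 0.25, 451 and 49.0 CPM in Cd9-low cells (edgeR adjusted p = 0.00109). In Cd37-high cells it stood at 0, 0, 6.0 and 0 CPM, against 28.5, 0.18, 317 and 42.6 CPM in Cd37-low cells (edgeR adjusted p = 0.030). One cell held 157 of 159 Car1 counts of library 1, 1177 of 1210 of library 3 and 297 of 301 of library 4, and library 2 had 1 count in all. Both calls were lost without library 3, and that for Cd37 also without library 1. Of the 16 gene lists tested in each split, the erythroid list held this 1 call and the others held 0.

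None of the other members passed in any split: 0 of 30 comparisons, with edgeR adjusted p of at least 0.998 and DESeq2 adjusted p of at least 0.13. At an unadjusted p below 0.05 there were 6. In 7 of the 30 the direction was the same in 4 of 4 libraries, and 13.3%, 13.8%, 12.4%, 13%, 12.7% and 13% of all genes met that rule in the splits by Cd9, Cd37, Cd63, Cd81, Cd82 and Tspan32. The largest difference was in Cd82: Cd37 stood at 27.7, 14.3, 21.9 and 38.2 CPM in Cd82-high cells, against 75.3, 58.9, 63.8 and 73.9 CPM in Cd82-low cells, with a log2 fold change of -1.49 ± 0.43 (SE). The ranges did not overlap, as for 2.94% of all genes in that split. Seen from Cd37, Cd82 averaged 53.2 ± 21.5 CPM in Cd37-high cells and 102 ± 20 CPM in Cd37-low cells (SD, n = 4), again without overlap, as for 3.95% of genes. Cd9 averaged 312 ± 67 CPM in Cd37-high cells and 415 ± 39 CPM in Cd37-low cells, lower in 4 of 4 libraries. The reverse split did not keep this direction. Cd37 averaged 55.9 ± 12.4 CPM in Cd9-high cells and 49.0 ± 15.7 CPM in Cd9-low cells, higher in 3 of 4 libraries. Cd82 averaged 66.2 ± 7.5 CPM in Cd9-high and 107 ± 24 CPM in Cd9-low cells, lower in 4 of 4. In reverse, Cd9 was lower in Cd82-high cells in 3 of 4. Tspan32 averaged 557 ± 107 CPM in Cd37-high and 445 ± 30 CPM in Cd37-low cells, higher in 4 of 4. In reverse, Cd37 was higher in Tspan32-high cells in 3 of 4. Cd81 averaged 695 ± 42 CPM in Tspan32-high cells and 588 ± 25 CPM in Tspan32-low cells, without overlap, as for 2.73% of genes. In reverse, Tspan32 averaged 526 ± 66 CPM in Cd81-high cells and 429 ± 48 CPM in Cd81-low cells, higher in 3 of 4 libraries. Cd81 averaged 685 ± 23 CPM in Cd63-high cells and 598 ± 34 CPM in Cd63-low cells, also without overlap, as for 3.2% of genes. In reverse there was no such difference. Cd63 averaged 737 ± 119 CPM in Cd81-high cells and 736 ± 72 CPM in Cd81-low cells, higher in 2 of 4 libraries. Cd9 was higher in Cd81-high than in Cd81-low cells in 3 of 4 libraries, at 460 ± 97 and 327 ± 67 CPM. In reverse, Cd81 averaged 686 ± 38 CPM in Cd9-high cells and 600 ± 63 CPM in Cd9-low cells, higher in 3 of 4.

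**Figure D5:**
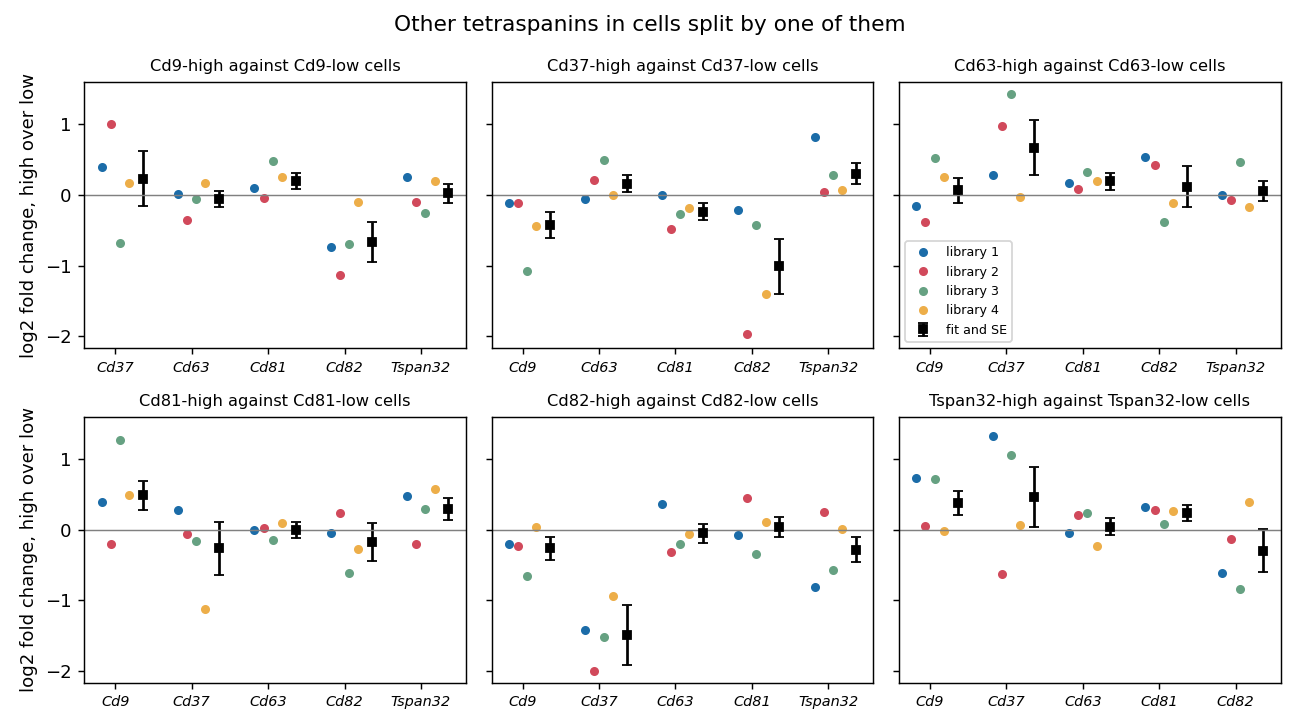
Log2 fold change of the other tetraspanins between cells high and low in one of them, per library (coloured points) and from the edgeR fit with its SE (black squares). None of the 30 comparisons passed the threshold; the lowest fitted value is Cd37 in Cd82-high cells (-1.49).

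No listed family gene and no partner gene passed edgeR in any of the 6. The median log2 fold change of the family genes was 0.03, -0.12, 0.09, 0.11, -0.26 and 0.02 in the splits by Cd9, Cd37, Cd63, Cd81, Cd82 and Tspan32, against -0.01, -0.14, -0.003, -0.01, -0.06 and 0.004 over all genes. The lowest was in the split by Cd82, with 12 of 17 family genes below 0. The medians of the partners were -0.03, -0.10, -0.06, -0.05, 0.05 and 0.13. Some other lists had larger medians. G2/M and S phase genes stood at -0.79 in the split by Tspan32 (15 of 16 below 0) and -0.77 in that by Cd37 (12 of 13 below 0). Their median was also below 0 in the splits by Cd9, Cd63, Cd81 and Cd82, at -0.15, -0.18, -0.19 and -0.32. Their sum was 705 ± 129 CPM in Tspan32-high and 1120 ± 662 CPM in Tspan32-low cells. In Cd37-high and Cd37-low cells it was 642 ± 200 and 1033 ± 530 CPM. Both sums were higher in the high cells in 1 of 4 libraries. The erythroid median was -1.70 in the split by Cd37, with 6 of 8 genes below 0, Car1 among them. The erythroid sum differed little there, at 3024 ± 280 CPM in Cd37-high cells and 3134 ± 626 CPM in Cd37-low cells. It was higher in Cd37-high cells in 2 of 4 libraries. Immediate early and dissociation genes were above 0 for 17 of 18 in the split by Tspan32, with a median of 0.27. The sum of 7 mature megakaryocyte markers was 219 to 301 CPM in Cd37-high cells and 143 to 270 CPM in Cd37-low cells, higher in 4 of 4 libraries. The single markers did not move together: of the 6 tested, 3 had a log2 fold change above 0 and 3 below. The sum of 5 B cell markers was 58.1 to 201 CPM in Cd37-high cells and 70.8 to 118 CPM in Cd37-low cells, higher in 2 of 4. The sum of 10 erythroid markers was 2445 to 3080 CPM in Cd81-high cells and 2754 to 4378 CPM in Cd81-low cells, lower in 4 of 4. The part of these markers in the results was not tested.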

How the data were processed

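RNA of single cells in 4 libraries of 1 group was analysed from the deposited table of raw counts per gene and cell, which the authors did not normalize. Per the submitters' processing notes the tools were Trimmomatic 0.36, HISAT2 2.1.0 and HTSeq 0.9.1 with GRCm38, in roles not given in the sources used here. Per the labels' protocols, barcoded cDNA had 20 cycles of PCR before pooling and 4 after, and 3′ ends were enriched. Collapsing by molecular identifier is not stated, so intervals cover counting error only. Cells had at least 10000 counts and 1000 genes, and no doublet caller was run, since the labels describe single-cell sorting settings. CPM came from summed counts. Correlations used counts thinned to 30000 per cell (seed 1). Sums per class were tested with edgeR 4.0.16 (TMM, filterByExpr), with DESeq2 1.42.0 as an alternative; a class needed 10 cells in each library. The steps were tested on simulated data. Pairing of classes by library comes from the cells' shared library. Named genes are the members, Cd27, the 5 highest and 3 lowest correlated genes of each member with 1 sign in 4 libraries, called genes and the highest list genes; Cd53 and Itgb1 were added after their values were seen, and a few genes that the rule names are not reported here. Members and gene lists were chosen with earlier results of these data known.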

Additional observations from a re-analysis of the deposited data

Results flagged for a closer look

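In 33 sets of 4 library values, 2 had a library far from the other 3, where chance gives about 1 in 20. The share of library 2 cells with a Tspan32 count was 86.7%, against 91.5% to 91.9% in the other 3 libraries. Library 2 holds 8 of the 15 cells of the runs, and Tspan32 was found in 10 of those 15 cells and in 254 of the other 277; their part was not tested. The rank correlation (rho) of Cd63 with Cd82 was 0.13 in library 1, against -0.11, -0.078 and -0.087 in libraries 2, 3 and 4.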

How the results depend on the processing

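The mean rho of Cd37 with Cd27 was -0.093 over cells with a count of both genes, a change of sign; for Cd81 with Cd27 it was -0.080 over such cells and -0.068 as Pearson r. Leaving out 1 library gave 0.19 to 0.28 for Cd37 and -0.21 to -0.15 for Cd81. Where edgeR called 1, 1, 0, 0, 0 and 0 genes for Cd9, Cd37, Cd63, Cd81, Cd82 and Tspan32, DESeq2 called 17, 189, 33, 21, 21 and 32. Without the replicate block (the library), which pairs high and low cells of 1 library, 0 genes were called for Cd9 and 0 for Cd37. With sums of thinned counts the counts were 0 for Cd9, 0 for Cd37 and 1 for Cd82. With cells split by any count they were 0 for Cd9, 2 for Cd37 and 1921 for Cd81. That split rested on as few as 1 cell in a library's class without Cd81, and the median log2 fold change of all genes was then 3.89; for Cd63 and Tspan32, with smallest classes of 1 and 6 cells, 0 genes were called and that median was 2.72 and 1.36. These fits lie below the minimum of 10 cells per class set for the tests, and no direction is read from them. With no filter on low counts there were 10 for Cd37 and 3 for Cd81, and with another random thinning 1 for Tspan32. Leaving out 1 library gave 0 to 1 for Cd9, 0 to 2 for Cd37, 0 to 1 for Cd81 and 0 to 1 for Tspan32; Cd81 reached 1 without library 1 or 3, and Tspan32 without library 3 or 4. The causes were not tested. Leaving out the 15 run cells and the other random thinning were chosen after seeing the data. Cd37 and Cd82 had a count in 95 and 119 of 292 cells, which limits what can be read for them.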
